A study of Homo sapiens with 6 samples.

Results

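The 9 genes described here are small nucleolar RNA (snoRNA) host genes, GAS5, SNHG1, SNHG5, SNHG6, SNHG7, SNHG8, SNHG12, SNHG15 and SNHG16. They were taken by name from a table of 22152 genes, and each of the 9 names matched 1 row. HaCaT cells, a human keratinocyte line that became immortal spontaneously in culture, received either a synthetic negative control miRNA (NC) or a synthetic miR-21-3p mimic, each at 1 nM, and RNA labelled as polyadenylated was sequenced 48 h later. There were 3 NC and 3 miR-21-3p mimic libraries, all from this 1 line, and no untransfected cells were analysed here. The recovered depth was 24405508 to 27985931 reads per library. miR-21-3p comes from the passenger arm of the miR-21 hairpin, and the comparison asks how RNA levels in keratinocytes differ when this strand is supplied in excess.

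Host genes of this kind are transcribed and spliced like messenger RNAs, but their introns carry snoRNAs, which guide the ribose methylation (box C/D class) or pseudouridylation (box H/ACA class) of ribosomal and spliceosomal RNA. The spliced exons of several hosts are loaded onto ribosomes and destroyed by nonsense-mediated decay (NMD), and many host transcripts begin with the terminal oligopyrimidine (TOP) tract of translation machinery mRNAs. Their levels are known to follow translation and growth state, and GAS5 was named for its accumulation in growth-arrested cells.

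Start-site sequences are shown because a TOP tract lies at the transcript start. RefSeq (GRCh38.p14) promoter entries were used for 7 of the 9 genes. SNHG15 had no entry. SNHG6 was left out of the search, so it does not enter the counts of the 7. Each sequence runs 30 bases either side of the start RefSeq gives, 5′ to 3′ on the gene's strand. Capitals mark the longest run of C or T that begins with C, is at least 5 bases long and reaches within 10 bases of the start.
GAS5, chr1:173869016-173869075, minus strand: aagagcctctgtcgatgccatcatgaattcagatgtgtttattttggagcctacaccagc
SNHG1, chr11:62855856-62855915, minus strand: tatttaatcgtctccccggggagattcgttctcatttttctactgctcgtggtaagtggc
SNHG5, chr6:85678704-85678763, minus strand: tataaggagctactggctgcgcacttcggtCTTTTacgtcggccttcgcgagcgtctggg
SNHG16, chr17:76557734-76557793, plus strand: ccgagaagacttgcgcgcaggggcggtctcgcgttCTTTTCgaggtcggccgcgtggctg
SNHG12, chr1:28581844-28581903, minus strand: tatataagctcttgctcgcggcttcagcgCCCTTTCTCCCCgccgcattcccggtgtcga
SNHG7, chr9:136728155-136728214, minus strand: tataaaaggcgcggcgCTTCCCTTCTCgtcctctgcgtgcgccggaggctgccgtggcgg
SNHG8, chr4:118278732-118278791, plus strand: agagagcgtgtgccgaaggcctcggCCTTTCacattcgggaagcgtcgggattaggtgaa
Such a run was found in 5 of these 7 genes and in 37.6% of the 35116 promoters searched. SNHG12 and SNHG7 had the longest runs of the 7, at 12 and 11 bases, and a run of at least 8 bases was held by 12.2% of all promoters. The windows of GAS5 and SNHG1 held none by this rule at the RefSeq start. The letters TATAA, searched on both strands over the 50 bases before the start, were found in SNHG5, SNHG7, SNHG8 and SNHG12, against 6.1% of all promoters. The letters CACGTG, which read alike on both strands, were found within the 300 bases of the SNHG7 promoter and in none of the other 6, against 7.3% of all promoters.

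The values are read counts divided by a size factor per library, given to 3 significant digits, and are called normalised read counts below. On the first principal component, which held 47% of the variance, NC replicate 2 stood apart from the other NC libraries. It lay at -1.7, while NC replicates 1 and 3 lay at -21.2 and -13.4 and the miR-21-3p mimic libraries at 6.8 to 17.9. By the counts of low genes it did not stand apart. The chi-square per gene was 1.31 between NC replicates 2 and 3, 1.39 between 1 and 3 and 1.73 between 1 and 2. The cells carried the keratinocyte identity of their label in all 6 libraries: KRT5, a basal keratin, was read at 123000 to 139000, and the 11 measured keratinocyte markers summed to 371180 to 402320 per library. Of the 11 listed markers of leukocytes, endothelium, fibroblasts and melanocytes, 3 were measured, and none of those 3 was at 0. They summed to 1435, 1311 and 1332 in NC and to 1229, 1277 and 1251 in the miR-21-3p mimic libraries, VWF being the most abundant at 712 to 801. COL1A1, a fibroblast collagen, was read at 560, 390 and 478 in NC and at 372, 378 and 364 with the mimic, lower in every mimic library (log2 fold change -0.34, limma adjusted p = 0.0635). It was called lower by DESeq2 on recovered reads (adjusted p = 0.0276) and without NC replicate 2 (0.00179), and the part of these markers in the results was not tested.

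Of the 9 host genes, SNHG15 and SNHG1 were upregulated in the miR-21-3p mimic cells and none was called downregulated (limma on log2(value + 1), Benjamini-Hochberg adjusted p below 0.05 over 14782 genes). Across all genes tested, 909 were called higher (6.15%) and 691 lower (4.67%). SNHG15 stood 1.32-fold and SNHG1 1.10-fold above NC. In bulk RNA of a culture, a change in the share of cells in a given state and a change in RNA per cell cannot be told apart. SNHG7, with the lowest fold change of the 9, missed the threshold, and the other 6 differed by 0.11 or less on the log2 scale. At an unadjusted p below 0.05, 2 host genes were higher and 1 was lower, against 15.3% and 13.2% of all genes tested. Without NC replicates 1, 2 and 3 in turn, 1, 1 and 0 of the 9 were called higher (316, 1629 and 98 of all genes), and without mimic replicates 1, 2 and 3, 0, 1 and 1 (147, 899 and 203 of all genes). The genes called lower then numbered 229, 1334, 81, 132, 641 and 165, with 1 host gene among them without NC replicate 2 and none otherwise. The 3 miR-21-3p mimic values all lay above the 3 NC values for 3 of the 9, SNHG15, SNHG1 and GAS5, against 16.5% of all genes tested. For none of the 9 did they all lie below, against 14.8%.

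**Figure D1:**
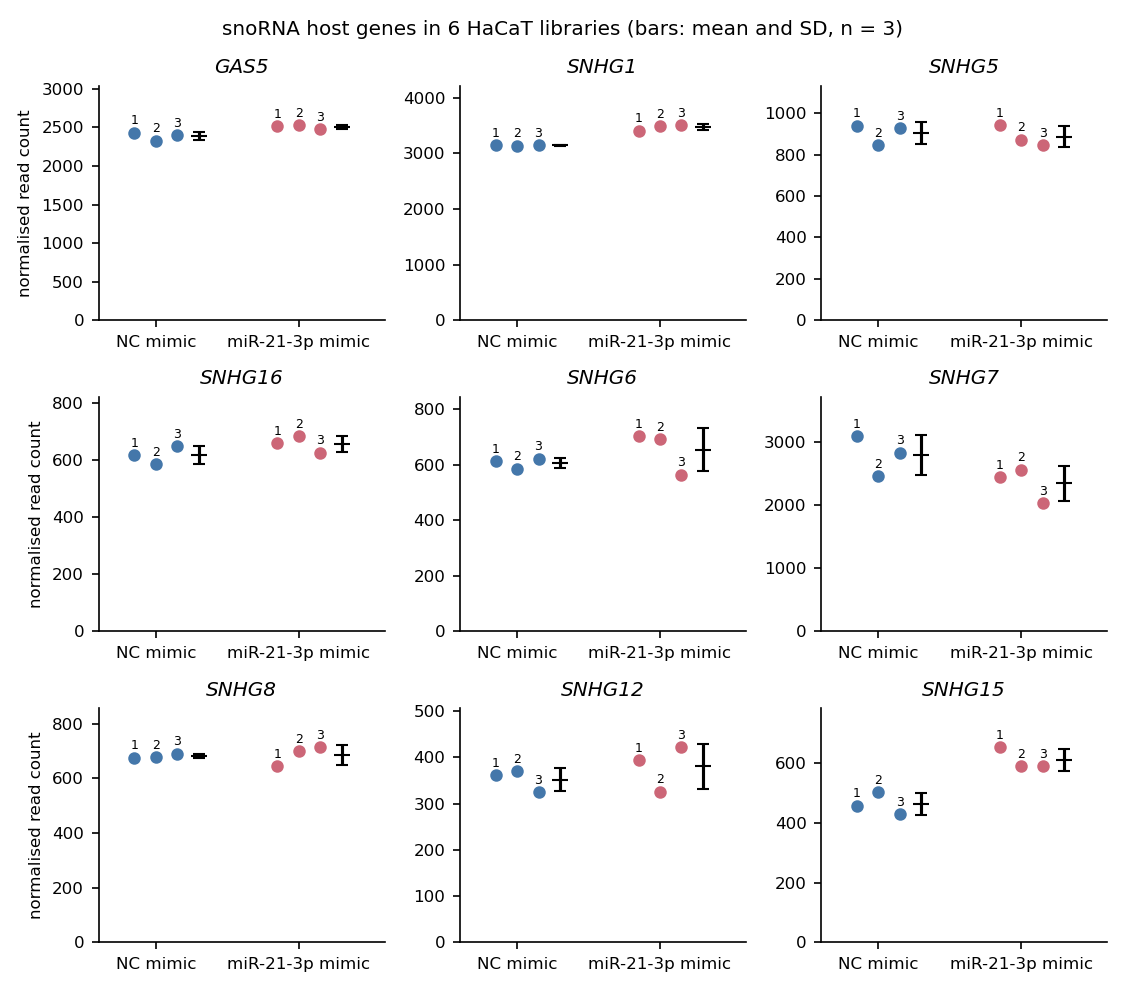
Normalised read count (y axis, from 0) of the 9 snoRNA host genes in the 3 NC mimic (blue) and 3 miR-21-3p mimic (red) libraries, numbered by replicate, with the mean and SD of each group in black. The groups do not overlap for GAS5, SNHG1 and SNHG15, and SNHG7 shows wide spread within both groups.

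Among the hosts of box C/D snoRNAs, SNHG1 carries 8 listed guests and GAS5 carries 10. SNHG1 (ENSG00000255717) was read at 3150, 3140 and 3150 in NC replicates 1 to 3 and at 3410, 3490 and 3510 in the miR-21-3p mimic replicates. All the miR-21-3p mimic libraries exceeded all the NC libraries. The mean was 3147 ± 5.77 in NC and 3470 ± 52.9 with the mimic (SD, n = 3 each). The log2 fold change was 0.14 (SE 0.04, 95% interval 0.05 to 0.23), a 1.10-fold difference with a limma adjusted p of 0.0484. The NC values of SNHG1 varied by 0.183% (coefficient of variation), below the 1.73% that counting error alone gives at its mean of recovered reads. The call lay close to the threshold. It was made in 4 of 16 alternative analyses and lost in all 6 that left out 1 library, with adjusted p-values of 0.0564 to 0.156 there and 0.0443 to 0.156 over all 16.

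GAS5 (ENSG00000234741), whose RNA is also known to bind the glucocorticoid receptor, had 2430, 2330 and 2400 normalised reads in NC and 2520, 2530 and 2480 with the mimic. The groups did not overlap, but the lowest mimic value exceeded the highest NC value by less than the SD within NC. The log2 fold change of GAS5 was 0.07 (SE 0.04, 95% interval -0.02 to 0.17, limma adjusted p = 0.298), so a rise of more than 1.12-fold lay outside the interval. GAS5 varied little within either group, by 2.15% in NC and 1.05% with the mimic, near the 2.02% of counting error.

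SNHG16, the host of 3 box C/D guests of the SNORD1 group, ranged from 584 to 648 in NC and from 625 to 683 with the mimic, so the groups overlapped. SNHG6, the host of SNORD87, was read at 586 to 622 in NC and at 703, 692 and 564 with the mimic. Mimic replicate 3 of SNHG6 lay below every NC value and the other 2 above every NC value. SNHG5, which carries SNORD50A and SNORD50B, ranged from 845 to 939 in NC and from 846 to 942 with the mimic, almost the same span. The log2 fold changes of SNHG16, SNHG6 and SNHG5 were 0.09 (95% interval -0.05 to 0.24), 0.10 (-0.08 to 0.28) and -0.03 (-0.17 to 0.11), with limma adjusted p-values of 0.403, 0.469 and 0.808. With 1 library left out, SNHG6 ran from 0.04 to 0.20 and SNHG16 from 0.05 to 0.13, and neither was called. The estimate for SNHG5 was near 0 and took the opposite sign, at 0.0045, without miR-21-3p mimic replicate 3.

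SNHG12 is a mixed host, with 3 box H/ACA guests and 1 box C/D guest. Its values were 361, 370 and 324 in NC and 393, 326 and 422 with the mimic. The groups overlapped, since mimic replicate 2 lay within the NC range. The log2 fold change of SNHG12 was 0.11 (SE 0.10, 95% interval -0.11 to 0.32, limma adjusted p = 0.519). It was 0.21 without mimic replicate 2 and 0.03 without mimic replicate 3, and not called in either.

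The remaining 3 genes host box H/ACA snoRNAs alone, and they included both the highest and the lowest fold change of the 9. SNHG15 (ENSG00000232956), the host of SNORA9, was read at 458, 503 and 429 in NC and at 655, 590 and 592 with the mimic. Every mimic library exceeded every NC library. The mean was 463 ± 37.3 in NC and 612 ± 37.0 with the mimic (SD, n = 3 each). SNHG15 was upregulated 1.32-fold, a log2 fold change of 0.40 (SE 0.08, 95% interval 0.23 to 0.57, limma adjusted p = 0.0109). It ranked 277 among 14782 genes by adjusted p. The call held in 13 of 16 alternative analyses, with adjusted p-values from 0.00109 to 0.0782. It was lost without NC replicate 3 (log2 fold change 0.35, adjusted p = 0.0662), without miR-21-3p mimic replicate 1 (0.35, 0.0659) and where limma ran without a mean-variance trend (0.40, 0.0782), a setting under which 24 genes were called in each direction and none of the 9.

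SNHG7 (ENSG00000233016), the host of SNORA17A and SNORA17B, was read at 3090, 2460 and 2830 in NC and at 2440, 2560 and 2030 with the mimic. NC replicate 2 lay inside the range of the mimic libraries, so the groups overlapped. The mean was 2793 ± 317 in NC and 2343 ± 278 with the mimic (SD, n = 3 each). The log2 fold change of SNHG7 was -0.25 (SE 0.09, 95% interval -0.45 to -0.06), with a limma adjusted p of 0.0869. Its coefficient of variation was 11.3% in NC and 11.9% with the mimic, against 1.97% from counting error. Without NC replicate 2 the log2 fold change was -0.34 and SNHG7 was called lower (limma adjusted p = 0.00673), as it was by DESeq2 on recovered reads with all 6 libraries (-0.26, adjusted p = 0.0379). Over the 16 alternatives its adjusted p ran from 0.00673 to 0.296.

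SNHG8, the host of SNORA24, stayed within 676 to 691 in NC and ranged from 645 to 715 with the mimic. The NC range of SNHG8 lay inside that of the mimic, and the log2 fold change was 0.01 (95% interval -0.13 to 0.15, limma adjusted p = 0.935). It turned negative without miR-21-3p mimic replicate 2 (-0.0054) and without replicate 3 (-0.02).

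The 9 host genes together summed to 12333, 11496 and 12022 normalised reads in NC replicates 1 to 3 and to 12367, 12443 and 11784 in the miR-21-3p mimic replicates. The summed ranges overlapped, and SNHG1, SNHG7 and GAS5 supplied most of each sum. Levels were also divided by exon length, the union of all exons annotated for a gene in GENCODE v29. This union can be longer than the spliced RNA, and may differ from the annotation the authors counted on. The order below therefore depends on which transcripts are annotated. In NC, SNHG1 stood at 838 ± 1.54 normalised reads per kilobase, SNHG8 at 739 ± 8.82, GAS5 at 657 ± 14.1 and SNHG7 at 643 ± 72.9 (SD, n = 3). Lower came SNHG6 at 487 ± 15, SNHG5 at 322 ± 18.3, SNHG15 at 127 ± 10.2, SNHG16 at 115 ± 5.97 and SNHG12 at 82.4 ± 5.71. GAS5 and SNHG7 did not differ beyond their spread in this order, nor did SNHG15 differ from SNHG16 by more than their SDs added. In the miR-21-3p mimic cells SNHG15 stood at 168 ± 10.1 and SNHG16 at 122 ± 5.44 per kilobase, apart by more than their SDs added.

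Another 21 noncoding snoRNA hosts were listed, and 18 had a row. Of these, 1 was called higher and none lower by limma, against 6.15% and 4.67% of all genes tested. At an unadjusted p below 0.05, 3 were higher and 3 lower, against 15.3% and 13.2% of all genes tested. In this list, edgeR on recovered reads called 1 lower and DESeq2 none. Their median log2 fold change was 0.01, that of the 9 genes 0.09 and that of all genes tested 0.00. The gene called was SNHG26, with 155, 153 and 143 normalised reads in NC and 219, 171 and 223 with the mimic (log2 fold change 0.43, SE 0.12, limma adjusted p = 0.0381). The most abundant hosts that were not called, SNHG29 and ZFAS1, had log2 fold changes of 0.02 (95% interval -0.08 to 0.12) and -0.05 (-0.15 to 0.05). The SNHG26 count of 1 became 0 without NC replicates 1 or 3 or mimic replicates 1 or 3, and 2 hosts were called higher without NC replicate 2 or mimic replicate 2; 1 was called lower without NC replicate 2.

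**Figure D2:**
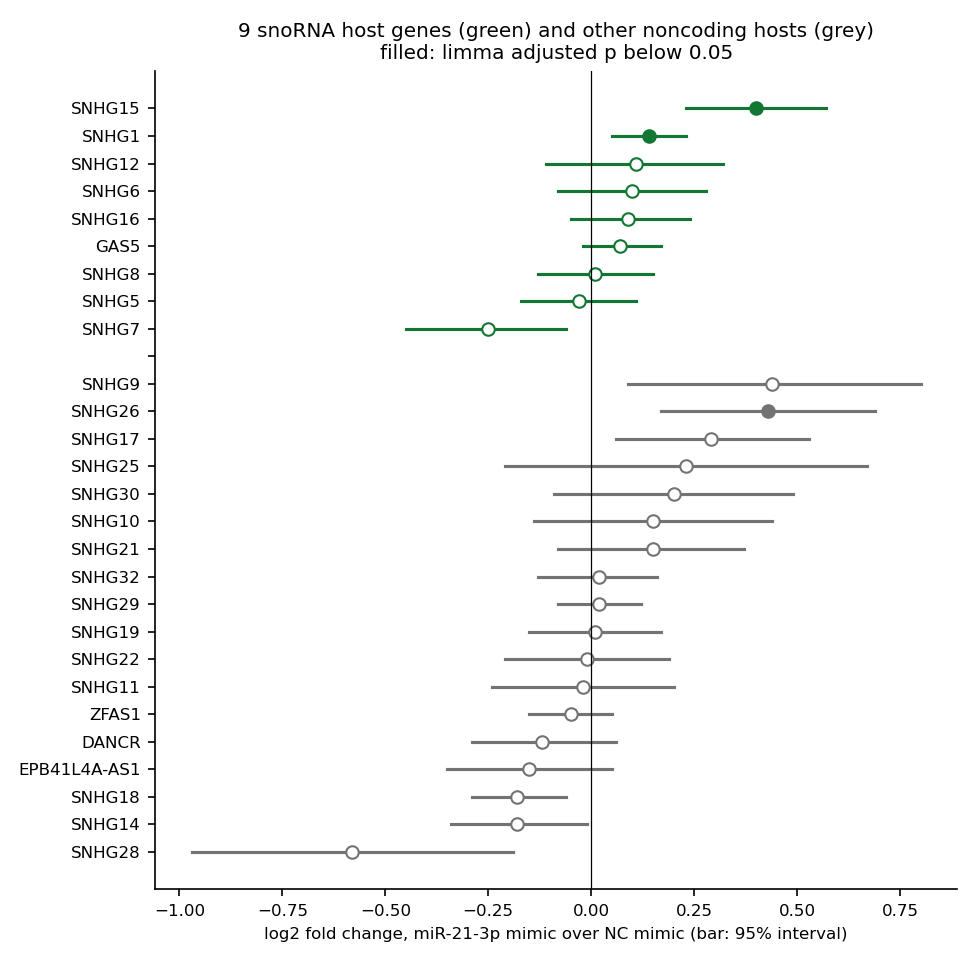
Log2 fold change of miR-21-3p mimic over NC mimic (x axis) with its 95% interval for the 9 host genes (green) and the 18 other measured noncoding hosts (grey). Filled points are called by limma (SNHG15 at 0.40, SNHG1 at 0.14 and SNHG26 at 0.43) and open points are not.

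The snoRNAs inside the hosts could not be followed. None of the 33 listed guest names had a row in the table used here. Of 18 rows of other snoRNAs, 17 were at 0 reads in all 6 libraries and SNORD3B-1 had 1 read in 1 library, so mature snoRNAs were not measured here. Spliced and unspliced host reads were not told apart.

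Genes next to the hosts were read in the same fit. SLC3A2, an amino acid transporter subunit beside SNHG1, had a log2 fold change of 0.12 (95% interval 0.01 to 0.22, limma adjusted p = 0.146), and WDR74 on the other side 0.19 (-0.01 to 0.38; adjusted p = 0.189). Beside SNHG15, PURB and CCM2 were at 0.01 (-0.08 to 0.10) and 0.10 (-0.01 to 0.22), with limma adjusted p-values of 0.908 and 0.210. Beside SNHG7, AGPAT2 and TMEM141 were at -0.07 (-0.20 to 0.05) and 0.10 (-0.03 to 0.22). SYNCRIP near SNHG5 was called higher (0.19, limma adjusted p = 0.0370), while SNHG5 was not. Other nearest tested genes were RC3H1 (GAS5), ZNF292 (SNHG5), SGK3 and COPS5 (SNHG6), NT5C3AP1 and PRSS12 (SNHG8), RCC1 and TAF12 (SNHG12), and ST6GALNAC2 and an antisense RNA named RP11-666A8,8 (SNHG16). None of these was called by limma, with log2 fold changes from -0.30 to 0.16 and adjusted p-values of 0.0612 or more. In GENCODE v29, ZBTB37 and GAS5-AS1 overlap GAS5, MCMDC2 overlaps SNHG6, FAM69B overlaps SNHG7 and TRNAU1AP overlaps SNHG12, each on the opposite strand. The library kit keeps strand, but the strand setting of the counting is not given in the sources used here, so reads of these pairs may not be fully separated. None of these 5 overlapping genes was called by limma, with log2 fold changes from -0.30 (GAS5-AS1) to -0.0022 (ZBTB37). AC015802.6, which overlaps SNHG16 on the opposite strand, was not analysed here.

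Some genes of the proteins that assemble snoRNAs into particles were called higher. Of 17 snoRNP core and assembly genes, 4 were called higher and none lower by limma (none lower at an unadjusted p below 0.05, nor by edgeR or DESeq2), with a median log2 fold change of 0.21. NOLC1, a nucleolar chaperone of snoRNPs, was read at 2640, 3280 and 2830 in NC and at 4010, 3280 and 4230 with the mimic (log2 fold change 0.39, limma adjusted p = 0.0207). ZNHIT6, NOP56 and RUVBL2 were called higher with log2 fold changes of 0.33, 0.38 and 0.28. FBL, the methyltransferase of box C/D particles, and DKC1, the pseudouridine synthase of box H/ACA particles, stood at 0.21 and 0.25 and missed the threshold (limma adjusted p = 0.0622 and 0.0804). Among 22 measured coding hosts of snoRNAs, 4 were called higher and none lower by limma (none lower at an unadjusted p below 0.05, nor by edgeR or DESeq2), and the median was 0.16. EEF1B2, HSPA9, NOP56 and SNRPB were the 4. The most abundant, EEF2 and TPT1, were at -0.04 (95% interval -0.16 to 0.07) and -0.07 (-0.17 to 0.04). EEF1B2 and TPT1 have processed pseudogenes, so their counts are uncertain where reads map to more than 1 copy. These counts depended on single libraries: without NC replicates 1, 2 and 3 in turn, 1, 10 and 0 snoRNP genes and 0, 12 and 0 coding hosts were called higher, and without mimic replicates 1, 2 and 3, 0, 8 and 0 snoRNP genes and 0, 11 and 0 coding hosts.

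Growth-related lists were read beside the hosts. Of 16 proliferation genes, 12 were called higher and none lower by limma (none lower at an unadjusted p below 0.05, nor by edgeR or DESeq2), with a median log2 fold change of 0.37. RRM2, a ribonucleotide reductase subunit, was read at 1340, 1980 and 1550 in NC and at 2650, 2620 and 3060 with the mimic (log2 fold change 0.79, SE 0.11, limma adjusted p = 0.00327). CDK1, BIRC5 and CCNA2 were called higher at 0.42, 0.40 and 0.39. CCND1 and MCM2 were not called (0.11 and 0.22, limma adjusted p = 0.107 and 0.0559). The 16 genes summed to 90650, 108394 and 97460 in NC and to 119893, 118099 and 127361 with the mimic, and MKI67 was the most abundant. The number called higher was 5 without NC replicate 3 and 7 without mimic replicate 3. The part of proliferation in the SNHG15 and SNHG1 results was not tested.

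Ordered by SNHG7, the 6 libraries came in the reverse of their order by the median deviation of the snoRNP genes. For the proliferation genes this held except between NC replicate 2 and mimic replicate 2. Their median deviation there was -0.02 and 0.12 (log2), and SNHG7 was also higher in mimic replicate 2. These orders were not tested. SNHG7 differed by less than its counting error of 1.97% between NC replicate 2 (2460) and mimic replicate 1 (2440). Nearly the same order was held by EPB41L4A-AS1 of the other noncoding hosts, so it was not particular to SNHG7. EPB41L4A-AS1 was read at 614, 497 and 585 in NC and at 513, 556 and 459 with the mimic. SNHG7 was highest in NC replicate 1, followed by NC replicate 3, and lowest in mimic replicate 3. NOLC1 was lowest in NC replicate 1, followed by NC replicate 3, and highest in mimic replicate 3. In NC replicate 2 and mimic replicate 2, NOLC1 had the same value of 3280, and SNHG7 stood at 2460 and 2560. The median deviation of the 9 host genes from their 6-library mean lay between -0.07 and 0.05 (log2) in every library, and that of the proliferation genes between -0.33 and 0.28. The median of the 9 does not show whether single hosts follow this gradient, and the difference between these lists was not tested.

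**Figure D3:**
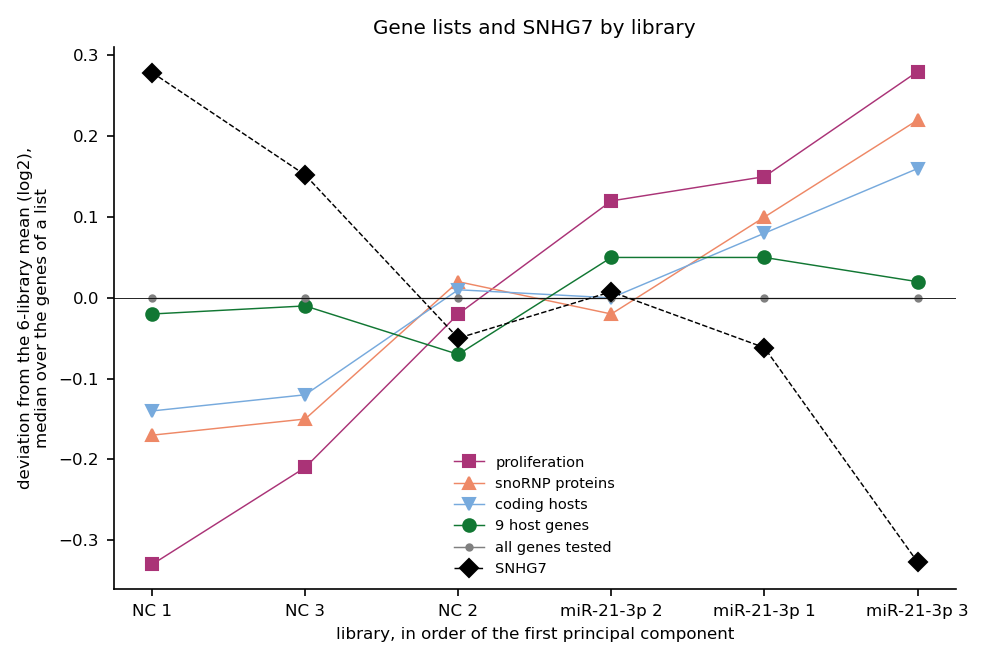
Median deviation from each gene's mean over the 6 libraries (y axis, log2) for 4 gene groups and all genes tested, with SNHG7 alone as a dashed line; libraries are placed in the order of the first principal component (x axis). The proliferation genes run from -0.33 in NC replicate 1 to 0.28 in mimic replicate 3. SNHG7 runs the other way except from NC replicate 2 to mimic replicate 2, where both rise. The median of the 9 host genes stays within -0.07 to 0.05.

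Decay and translation factors were read because they act on spliced host RNAs. Of 17 NMD factors and 12 translation genes with TOP mRNAs, 1 each was called higher by limma, near the 6.15% of all genes. Among the NMD factors this was GSPT1, a translation termination factor (log2 fold change 0.19, limma adjusted p = 0.0218), and the median was 0.01. SMG1, the kinase that starts NMD, was at -0.08 (95% interval -0.18 to 0.01). Among the TOP genes it was EEF1B2 (log2 fold change 0.28, adjusted p = 0.0214), and the median was 0.01. No gene of these NMD and TOP lists was called lower by limma, edgeR or DESeq2, nor had a lower value at an unadjusted p below 0.05. Both calls were lost without NC replicates 1 or 3 or mimic replicates 1 or 3, and 2 NMD factors were called without NC replicate 2.

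In the mTOR pathway, which controls translation of TOP mRNAs, EIF4EBP1 and MTOR were called higher (log2 fold changes 0.39 and 0.27, limma adjusted p = 0.0126 and 0.0145) and TSC1, an inhibitor of the pathway, lower (-0.18; adjusted p = 0.0279), out of 16 genes with a median of 0.02. The call for TSC1 held without NC replicate 2 and was lost when any other library was left out, and no gene of the pathway was called higher without NC replicate 3 or mimic replicates 1 or 3. Of 14 genes of the integrated stress response, 3 were called higher and none lower by limma (none lower at an unadjusted p below 0.05, nor by edgeR or DESeq2), and the median was 0.07. TRIB3, PSAT1 and ASNS were the 3, with log2 fold changes of 0.29, 0.72 and 0.57, while the transcription factor ATF4 was at 0.08 (95% interval -0.03 to 0.18). A single stress-response gene was called without NC replicate 3 or mimic replicates 1 or 3. The glucocorticoid receptor gene and targets of the receptor, 7 genes together, were listed because GAS5 binds the receptor. None of the 7 was called in either direction by limma, edgeR or DESeq2 or passed an unadjusted p of 0.05. Without NC replicate 2, 1 was called lower. The receptor NR3C1 was at -0.08 (95% interval -0.20 to 0.03) and its target TSC22D3 at -0.19 (-0.42 to 0.04). Of 11 keratinocyte markers, KRT6A was called higher by limma (log2 fold change 0.34, adjusted p = 0.00203) and none lower. Named after their values were seen, EGFR was at -0.21 (adjusted p = 0.0559) and SFN at 0.15 (0.0545). EGFR was called lower by edgeR and DESeq2, under library-size scaling and without NC replicate 2 or mimic replicate 2. Without NC replicate 2 there were 2 markers called higher and 2 lower.

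**Figure D4:**
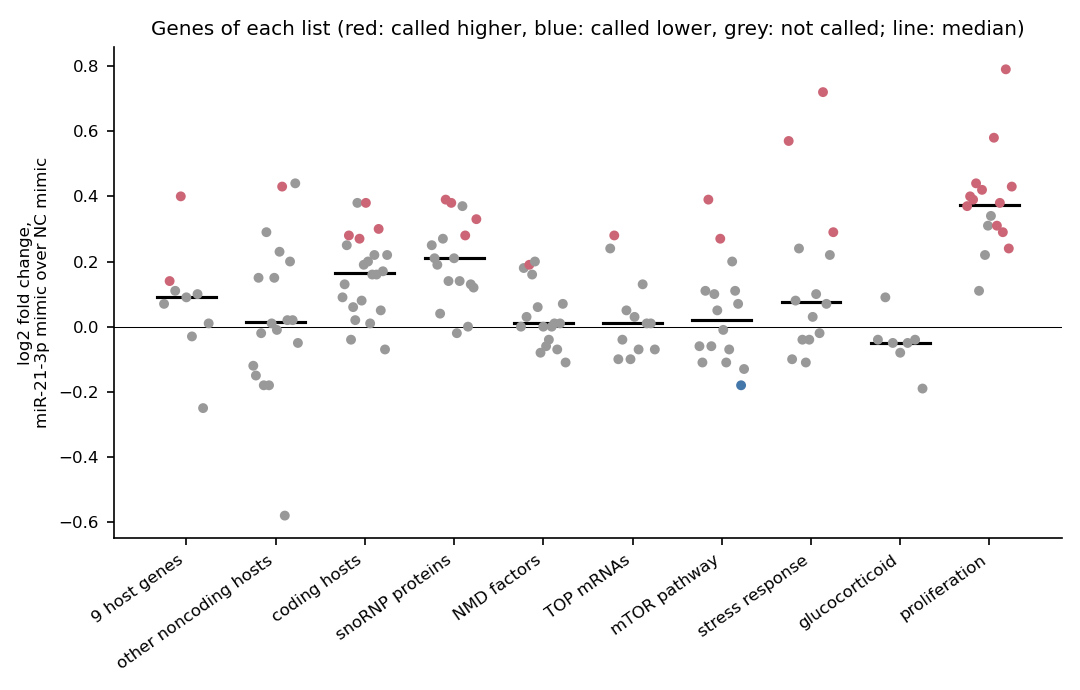
Log2 fold change of miR-21-3p mimic over NC mimic (y axis) for the tested genes of 10 lists (x axis), with the median of each list as a black line; red points are called higher and blue points lower by limma. The median is 0.37 for the proliferation genes, 0.21 for the snoRNP proteins and 0.09 for the 9 host genes.

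The genes whose profile over the 6 libraries was most like the mean standardised profile of the 9 hosts, among 9997 genes with a mean of at least 10 CPM (recovered reads scaled to the library total), were IL20RB, AKIRIN1, USP39, RHOT1 and THBD (Pearson r = 0.984, 0.981, 0.971, 0.970 and 0.968 across 6 libraries that fall into 2 groups). Of these, THBD alone was called higher (log2 fold change 0.34, limma adjusted p = 0.00884), and IL20RB was at 0.10 (adjusted p = 0.159).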

How the data were processed

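The labels of the 6 HaCaT libraries give polyadenylated RNA and a stranded mRNA kit, while the published methods describe small RNA libraries. The labels were followed. The submitters' processing notes name bcl2fastq 2.18.12, cutadapt 1.15, TopHat2 2.1.1, Subread 1.5.2, featureCounts and DESeq2; genome build and annotation are not given in the sources used here. The deposited values are a signal, gene counts divided by size factors and rounded to 3 significant digits. Dividing by the value of 1 read (0.897 to 1.042) gave whole reads, within 0.1, for 100% of values above 0 and below 100, and for 55.5% to 56.4% of all values, where rounding is coarser.

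Since the values were not raw counts, the planned edgeR test was replaced by limma 3.58.1 (R 4.3.3) on log2(value + 1), with a mean-variance trend, group as the only term, genes with a mean of at least 10, two-sided tests and Benjamini-Hochberg adjustment over all genes. The limma script was tested on simulated data. Fold changes on this scale understate those of low genes. Libraries of a group differed by more than counting error (chi-square per gene of 1.31 to 1.73 in pairs). Separate cultures were not detailed, so p-values measure the spread between these samples. Alternatives used edgeR 4.0.16, DESeq2 1.42.0, other filters, pseudocounts and scalings, a replicate block and each library left out. Lists were matched by Ensembl ID, then by name. Named were the 9 hosts and, per list, up to 4 called genes with the smallest adjusted p and up to 2 uncalled genes with the highest mean, besides the nearest tested neighbours and the 5 genes with the most similar profile; some genes this rule takes are not reported here. The members and lists were chosen with earlier results of these data known.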

Additional observations from a re-analysis of the deposited data

How the results depend on the processing

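SNHG15 kept its direction in all 16 alternatives and its call in 13, and SNHG1 kept its direction in all 16 and its call in 4. The test first planned, for raw counts, was edgeR with TMM. Its use on recovered reads, limma without a trend and both other pseudocounts were chosen after seeing the data. The log2 fold change of SNHG1 was 0.14 and not called under edgeR with TMM (adjusted p = 0.0556) or RLE scaling (0.0571), DESeq2 (0.0754), no filter on low values (0.0524), limma without a trend (0.133) and a replicate block (0.141). SNHG15 was at 0.40 and not called under limma without a trend (adjusted p = 0.0782), and SNHG7 at -0.26 was called lower by DESeq2 (0.0379). The cause was not tested.

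Of the 9 hosts, 2 were called higher; the number was 1 under edgeR with either scaling, DESeq2, no filter and the replicate block, and 0 under limma without a trend. None was called lower by limma, and 1 was under DESeq2. Over all genes, limma called 909 higher and 691 lower, edgeR on recovered reads 881 and 761, and limma without a trend 24 and 24. For the other noncoding hosts, the 1 called higher became 0 under limma without a trend, and 1 was called lower there and under edgeR with TMM or RLE. Limma without a trend called no gene of the other lists, the block lost GSPT1 and TSC1, and DESeq2 and library-size scaling each called 2 keratinocyte markers higher and 1 lower. Under edgeR with TMM or RLE scaling and without mimic replicate 2, 1 was called higher and 1 lower. DESeq2 called 1 marker of other cells lower.

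Leaving out 1 library gave 0 to 1 hosts higher and 0 to 1 lower, 98 to 1629 genes higher and 81 to 1334 lower, and 0 to 2 other noncoding hosts higher and 0 to 1 lower. The log2 fold change then ran from 0.35 to 0.46 for SNHG15, 0.13 to 0.15 for SNHG1, -0.34 to -0.15 for SNHG7, 0.04 to 0.20 for SNHG6, 0.03 to 0.21 for SNHG12, 0.05 to 0.13 for SNHG16, 0.06 to 0.09 for GAS5, -0.08 to 0.0045 for SNHG5 and -0.02 to 0.05 for SNHG8. Fewer samples enter these fits.

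Libraries with the same replicate number did not deviate together (correlations over genes of -0.01, -0.20 and -0.17), so the numbers were not taken as pairs. The replicate block called 685 genes higher and 517 lower, and no library correlated best with its own number. With 3 libraries a group, a difference as small as the 1.05-fold of GAS5 was not separated from 0 by its interval.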
